A study of Mus musculus with 22 samples.

Results

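Cultured cerebellar granule neurons treated with ICRF-193 were compared with neurons given the solvent DMSO, on 8 of the 22 arrays of the series, chosen by their titles. The ICRF-193 group (n = 4) received 10 µM of the compound for 12 h and the DMSO group (n = 4) received solvent for the same time. Both groups came from pups at postnatal day 7, of a strain that the labels spell C56Bl6/J and the study's methods name as C57BL/6N; the methods did not distinguish the sex of the pups, and the labels give these arrays no genotype. Cells were purified from cerebellum on a percoll gradient and cultured, and all arrays are titled CGNs (cerebellar granule neurons) although their cell type label reads Granule Neuron Progenitors. The labels call the arrays biological replicates without naming animals or cultures, so the p-values measure the spread between these arrays.

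Type II DNA topoisomerases cut both strands of a DNA duplex, pass another duplex through the gap and seal it again, which relieves the twist that builds up ahead of and behind a transcribing polymerase. Vertebrates have an isoform of dividing cells, Top2a, and an isoform that postmitotic neurons keep, Top2b. ICRF-193, a bisdioxopiperazine, holds the enzyme as a closed clamp on DNA. Granule neurons are the excitatory neurons of the cerebellar cortex. They arise from Atoh1-positive progenitors that divide under hedgehog signals, leave the cell cycle, extend parallel fibres and migrate inward. The comparison addresses which transcripts change in these cultures when type II topoisomerases are inhibited, and it cannot assign a change to Top2b or Top2a.

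Levels are log2 signals after quantile normalization, in which a value of 4.00 is the floor, and changes are ICRF-193 minus DMSO on that scale. Precision rests on the number of arrays, since intensities carry no counts. Replicates 1 and 2 and replicates 3 and 4 formed sets that resembled each other within a set more than across sets. The sets differed in markers of pup sex in the same way in both groups. Xist, which is transcribed from the inactive X chromosome, had 10.85, 11.13, 13.33 and 12.89 on DMSO replicates 1 to 4 and 10.48, 11.07, 13.09 and 12.72 on ICRF-193 replicates 1 to 4. The Y-linked Eif2s3y ran the other way, with 10.57, 10.49, 8.90 and 9.12 on the DMSO arrays and 10.42, 10.45, 9.23 and 9.30 on the ICRF-193 arrays. The 3′ minus 5′ signal of the actin control probe sets, a measure of RNA integrity, lay between 0.15 and 0.28 on the DMSO arrays and between 0.22 and 0.30 on the ICRF-193 arrays.

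No change in transcript level passed the test for the targets of the compound. Top2b had 12.98, 13.10, 13.06 and 12.99 on the DMSO arrays and 12.97, 13.16, 13.35 and 13.30 on the ICRF-193 arrays, a change of 0.16 that did not pass (limma adjusted p = 0.412). Top2a differed between the sets far more than between treatments, with 10.04 to 11.29 in DMSO and 10.40 to 11.46 in ICRF-193 (limma adjusted p = 0.77). Top1, the enzyme that cuts a single strand, had a change of -0.04 (limma adjusted p = 0.877). Transcript levels do not measure enzyme activity. Granule neurons are the cell type in the titles, and part of their markers had high signal on all 8 arrays. The cell type label names progenitors, whose markers are given below. Zic1 (14.73 to 14.87), Neurod1 (14.72 to 15.02), Pax6 (12.96 to 13.49) and Tubb3 (13.15 to 13.35), which mark granule cells and neurons, did not pass in either direction. Of the same list of 10 markers Rbfox3 (-1.02) and Mab21l1 (-0.61) fell and Neurod2 (0.51) rose.

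Of 10771 genes tested, 375 (3.48%) were lower and 340 (3.16%) were higher with ICRF-193 at a limma adjusted p under 0.05. Long neuronal genes for adhesion, synaptic receptors, calcium channel subunits and splicing factors were prominent among the falls. The largest rises were in short to middle-sized genes such as Doc2b, Il1b and Gpr153. Of these, Doc2b passed when every probe set was fitted, and Il1b and Gpr153 did not (limma adjusted p = 0.0809 and 0.0576). The median change was -0.69 among called falls and 0.63 among called rises, against 0.0083 over all genes. At least 2-fold falls numbered 114 and at least 2-fold rises 73, and at least 4-fold changes 22 and 7. The groups did not overlap for 1537 genes (14.3%), which include 710 of the 715 called genes. Leaving out DMSO replicate 1, ICRF-193 replicate 2 or ICRF-193 replicate 4 moved the count of rises to 224, 216 and 218.

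Nrg3, a neuregulin ligand of the Erbb4 receptor whose gene spans 1108 kb, had the largest fall among called genes without overlap. It had 8.51, 8.58, 8.01 and 7.85 on the DMSO arrays and 5.51, 5.90, 4.10 and 5.08 on the ICRF-193 arrays. All 4 ICRF-193 arrays lay below all 4 DMSO arrays, and the change was -3.09 ± 0.36 (SE), an 8.53-fold decrease (limma adjusted p = 0.00136). Pcdh9, a protocadherin of cell contacts spanning 879 kb, went from 11.31, 11.39, 11.14 and 11.06 to 8.70, 8.22, 8.30 and 7.80, a 7.85-fold decrease (limma adjusted p = 3.91e-05). These values are of its brightest probe set. Its other bright probe sets changed by -0.96 and -0.84 and did not pass when every probe set was fitted (limma adjusted p = 0.101 and 0.0617). Sorcs1, a sorting receptor that carries neurexins and glutamate receptors, went from 9.81, 9.67, 8.76 and 8.96 to 6.92, 6.89, 6.19 and 6.00 (limma adjusted p = 0.000806). In Nrg3 and Sorcs1 the second set was lower than replicates 1 and 2 under both treatments, so the sets differed in level while each showed the decrease.

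The netrin receptor Dcc, which steers growing axons, had 11.37, 11.46, 12.20 and 11.99 on the DMSO arrays and 8.78, 8.93, 9.39 and 9.24 on the ICRF-193 arrays, a 6.36-fold decrease (limma adjusted p = 0.000154). Grik2, a kainate receptor subunit, fell in both sets. It had 10.78, 10.97, 10.92 and 10.83 against 8.51, 8.27, 8.21 and 8.23, a change of -2.57 ± 0.09 (SE, limma adjusted p = 2.82e-06). C130030K03Rik, which RefSeq lists as another name of Grik2, is a separate probe set and had a change of -2.71. Tnr, an extracellular matrix glycoprotein, Nrxn3, a presynaptic adhesion molecule, and Zfpm2, a cofactor of GATA factors, had changes of -2.64, -2.53 and -2.33 and did not overlap either. Fgf14, a modulator of sodium channels, had a change of -2.24 (limma adjusted p = 0.0124) in its gene row, while 0 of its 3 bright probe sets passed in the fit of every probe set, and it did not pass without the filter on dim genes.

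Doc2b, a calcium sensor of vesicle release with a gene of 28 kb, had the largest rise. Its DMSO arrays had 6.63, 6.69, 6.58 and 6.77 and its ICRF-193 arrays 8.99, 9.11, 9.26 and 9.18. The separation was clean in both sets, with a change of 2.47 ± 0.08 (SE), a 5.53-fold increase (limma adjusted p = 2.82e-06). Il1b, the cytokine interleukin 1 beta, had 7.21, 7.74, 5.99 and 6.65 against 9.91, 10.13, 8.65 and 8.67, a change of 2.44 ± 0.46 (SE, limma adjusted p = 0.0161). Rasgrf1, a calcium-dependent exchange factor for Ras, went from 7.11, 7.77, 7.34 and 7.38 to 9.44, 9.48, 9.59 and 9.81 (limma adjusted p = 6.76e-05). At 117 kb Rasgrf1 had the largest rise among called genes over 100 kb.

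Kcnk3, an acid-sensitive potassium leak channel, had 5.96, 5.23, 4.68 and 4.00 on the DMSO arrays, the last of them at the floor, and 6.88, 7.99, 6.51 and 7.79 on the ICRF-193 arrays. Its change of 2.32 passed with all arrays (limma adjusted p = 0.0201) and no longer passed without DMSO replicate 3, ICRF-193 replicate 2 or ICRF-193 replicate 4 (0.0566 to 0.0613). Epha8, an ephrin receptor, rose by 1.69 (limma adjusted p = 0.0186) and lost its call without DMSO replicate 3, ICRF-193 replicate 1 or ICRF-193 replicate 2 (0.0506 to 0.0570). Without the filter on dim genes Kcnk3, Epha8 and Il1b did not pass. The remaining large rises kept their calls with each array left out. They were Gpr153 (2.28), an orphan receptor, Chst1 (2.07), a sulfotransferase of keratan sulfate, Plch2 (2.07), a phospholipase C, Eda2r (1.77), a death-domain receptor, Tesc (1.75), a calcium-binding protein, Clip4 (1.70), a linker protein of microtubules, and Rph3al (1.69), a Rab effector of secretion that did not pass as the mean of all its probe sets. Gpr153 was dim, with each DMSO array below 6.44, the limit on mean signal for testing. It did not pass in the fit of every probe set (limma adjusted p = 0.0576). Kcnk3, Epha8 and Il1b did not pass in that fit either. DMSO means below 6.44 were also those of Kcnk3 (4.97), Epha8 (5.65) and Tesc (6.23). The same held for Syt13 (6.08), Cdh22 (6.23) and Ptpru (6.29), rises given below.

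**Figure D1:**
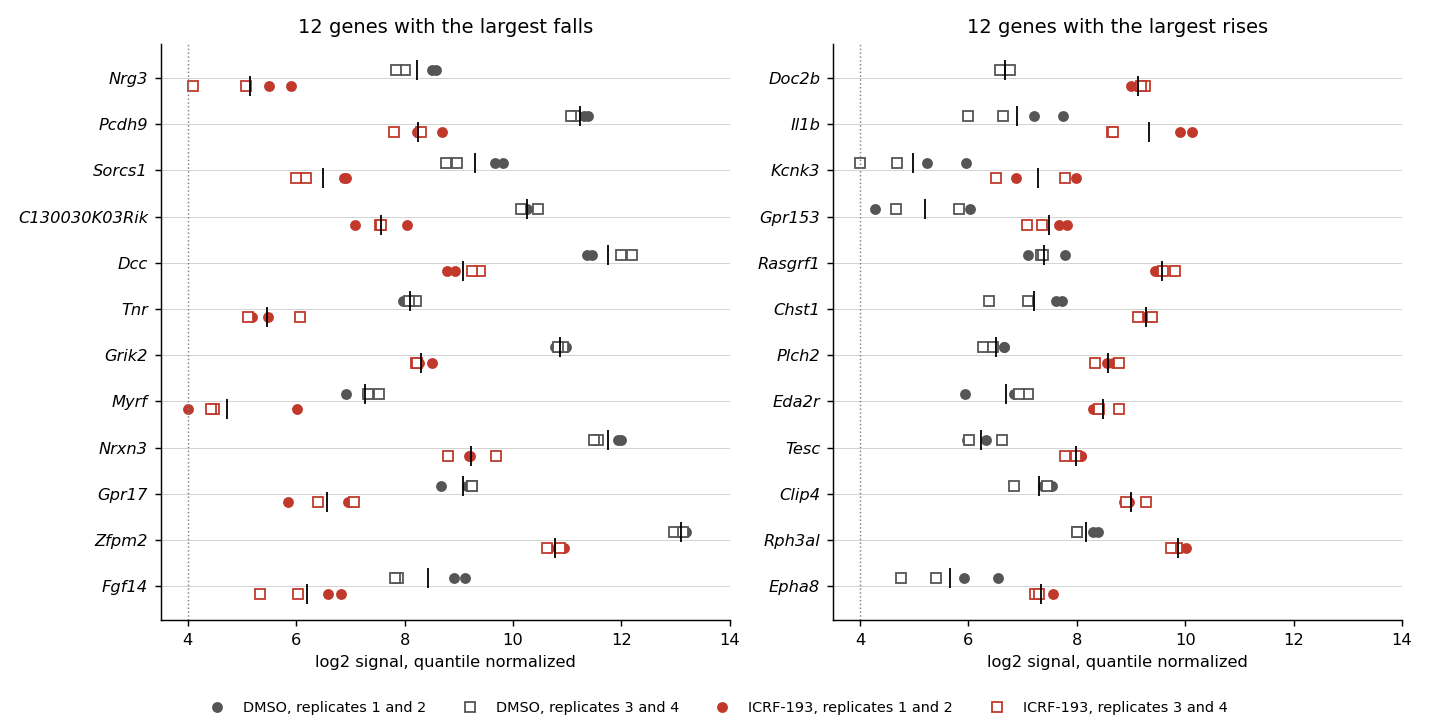
Log2 signal on each array (x axis, quantile normalized) of the 12 genes with the largest called falls (left) and rises (right) among genes whose groups do not overlap, drawn as filled circles (replicates 1 and 2) or open squares (replicates 3 and 4), a black dash for the group mean and a dotted line at the floor of 4. Nrg3 lies between 7.85 and 8.58 in DMSO and between 4.10 and 5.90 in ICRF-193, and in each row the red ICRF-193 symbols stand apart from the grey DMSO symbols.

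Gene length separated falls from rises. Length here is the annotated start to end in RefSeq GRCm38.p6, known for 10750 of the tested genes. The median length was 223 kb among fallen genes and 28.2 kb among risen genes, beside 25 kb over all tested genes, and the mean length was 322 kb, 54.4 kb and 59.6 kb. Of the fallen genes with a length, 246 (65.8%) exceeded 100 kb, against 51 (15.0%) of the risen genes and 1573 (14.6%) of all tested genes.

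The share of called falls did not climb steadily with length. It was 1.81% under 10 kb, 1.29% from 10 to 20 kb, 1.32% from 20 to 50 kb and 1.00% from 50 to 100 kb, all below the 3.48% over all genes. It was 5.21% from 100 to 200 kb, 19.5% from 200 to 400 kb and 55.1% at 400 kb or more. The median change moved the same way, from 0.03 at 50 to 100 kb and -0.02 at 100 to 200 kb to -0.13 at 200 to 400 kb and -0.67 at 400 kb or more. Among the 214 genes of 400 kb or more, 118 fell, 3 rose and 93 did not pass. The rank correlation of length and change across genes, which are not independent replicates, was -0.38 over the 1573 genes above 100 kb and 0.04 over the 9177 genes of 100 kb or less.

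**Figure D2:**
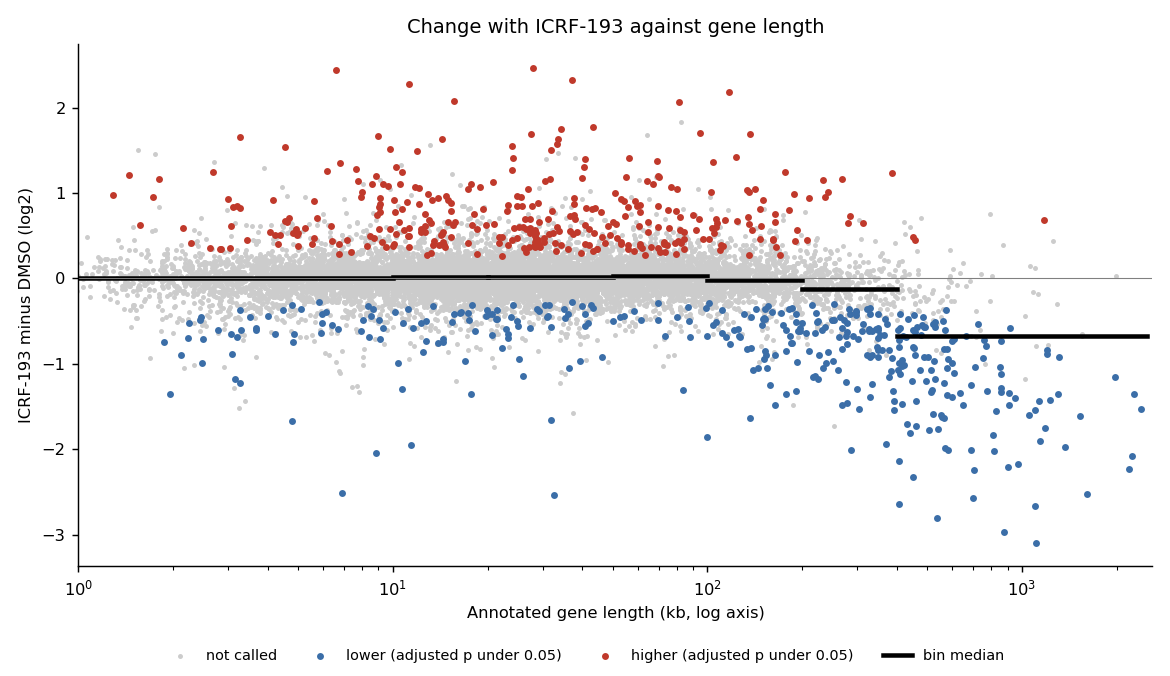
Change with ICRF-193 (y axis, log2) of each tested gene against its annotated length (x axis, kb, log axis), with called falls in blue, called rises in red, other genes in grey and black bars for the median of each length bin. The bars stay near 0 up to 200 kb and drop to -0.13 and -0.67 in the last bins.

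The longest genes tested were Dmd (2390 kb), which encodes dystrophin, Ptprd, a receptor phosphatase of synapses, Cntnap2, a partner of contactins, Lsamp, an adhesion molecule of the limbic system, and Macrod2, which removes ADP-ribose from proteins. Dmd had 8.80, 8.73, 8.72 and 8.71 on the DMSO arrays and 7.22, 7.40, 7.28 and 6.93 on the ICRF-193 arrays (limma adjusted p = 6.76e-05). Lsamp went from 10.61, 10.64, 10.38 and 10.26 to 8.80, 8.05, 7.75 and 8.36 (limma adjusted p = 0.000439). Neither gene had overlapping groups, and Ptprd and Cntnap2 fell by 1.36 and 2.07. Macrod2 overlapped, with 9.22, 9.55, 9.19 and 9.33 in DMSO and 9.32, 9.37, 9.52 and 9.20 in ICRF-193, a change of 0.03 with a 95% interval from -0.21 to 0.27 (limma adjusted p = 0.915).

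The 3 risen genes of 400 kb or more were Snhg14, Cacna1d and Cdh4. Snhg14, a long noncoding transcript of the imprinted Snrpn region spanning 1177 kb, had 10.52, 10.42, 10.90 and 10.79 against 11.17, 11.15, 11.65 and 11.39 (limma adjusted p = 0.0286). Its lowest ICRF-193 array lay above its highest DMSO array. Cacna1d, an L-type calcium channel, rose by 0.48 and Cdh4, a cadherin, by 0.45, and neither passed with arrays centred on their medians. Cdh4 also lost its call without DMSO replicate 2, DMSO replicate 4 or ICRF-193 replicate 4 (limma adjusted p = 0.0547 to 0.0667). The 93 genes of this length that did not pass had a median change of -0.19, and 66 of them were below 0.

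The probe sets of the fallen genes in this bin had a median DMSO signal of 10.67, and those of the genes that did not pass 8.52. When all tested genes were split into 3 equal parts by their mean signal, the share of falls at 400 kb or more was 35.4% in the dim part, 53.8% in the middle part and 78.6% in the bright part. At under 100 kb the same shares were 1.67%, 1.34% and 1.18%. The part that signal strength plays in the calls was not tested beyond this split.

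A long gene score was taken on each array as the mean level of genes over 100 kb minus the mean level of the other genes. It was 0.067, 0.037, 0.045 and 0.027 on the DMSO arrays and -0.180, -0.166, -0.123 and -0.130 on the ICRF-193 arrays. All DMSO values were above 0 and all ICRF-193 values below it, a difference of -0.19 (exact permutation test, two-sided, p = 0.0286, the smallest that 70 arrangements of 4 against 4 can give). Within the sets the difference was -0.23 and -0.16, and with arrangements restricted to sets the exact permutation p was 0.0556, again the smallest possible. With a limit of 50 kb the difference was -0.08, and with 200 kb it was -0.42. The score was lower with ICRF-193 in each of the 3 parts of signal strength (-0.13, -0.16 and -0.29).

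**Figure D3:**
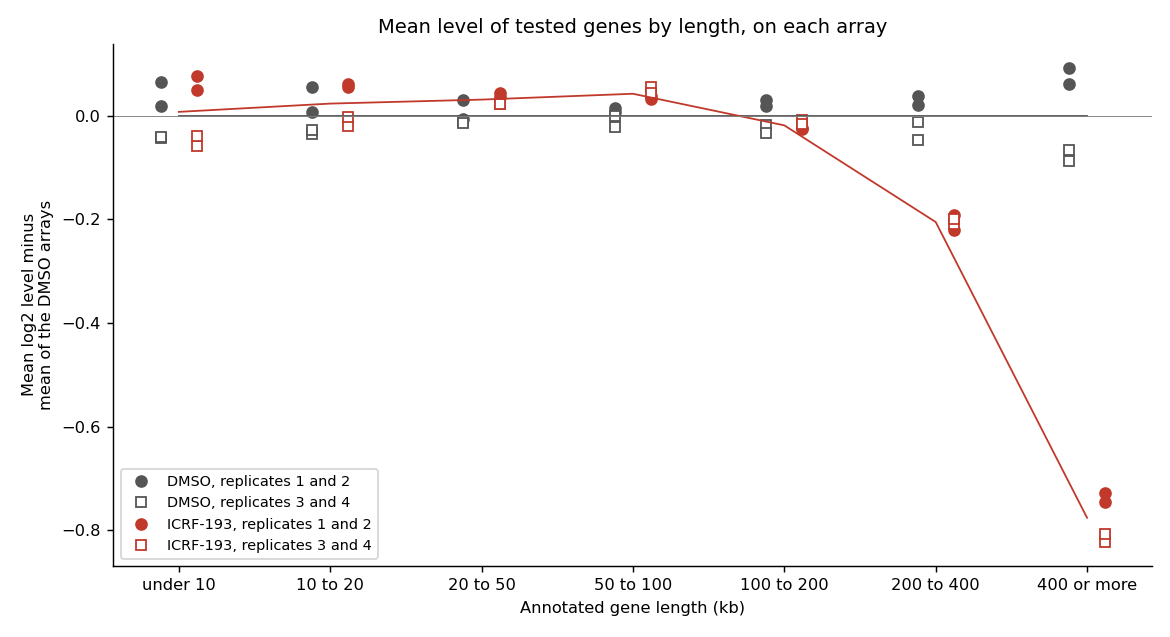
Mean log2 level of the tested genes in each length bin (x axis, kb) on each array, minus the mean of the 4 DMSO arrays (y axis), drawn as filled circles (replicates 1 and 2) or open squares (replicates 3 and 4), with lines through the group means. Up to 200 kb the ICRF-193 arrays overlap with or lie close to the DMSO arrays, and at 400 kb or more all 4 lie far below every DMSO array.

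Short genes that lie wholly inside a fallen long gene gave a comparison at the same place in the genome. The 246 fallen genes over 100 kb contained 9 tested genes of this kind. Of these, 2 fell, 7 did not pass and the median change was -0.13, beside 3.48% lower and a median of 0.0083 over all genes tested. Mab21l1, a regulator of neural development inside Nbea, had 12.82, 12.79, 12.79 and 12.87 on the DMSO arrays and 12.21, 12.21, 12.17 and 12.25 on the ICRF-193 arrays, a change of -0.61 beside -1.62 in Nbea, which anchors protein kinase A (limma adjusted p = 0.00058). The groups were far apart relative to their narrow spread. Its relative Mab21l2, inside Lrba, fell by 0.70 (limma adjusted p = 0.0434, or 0.102 when the replicate number was a block) beside -0.50 in Lrba. Timp3, an inhibitor of metalloproteinases inside Syn3, had a change of 0.01, and Sstr2, a somatostatin receptor inside Slc39a11, had 0.39 (limma adjusted p = 0.09, or 0.0207 with the block).

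Falls did occur in short genes. Gpr17, a receptor of committed oligodendrocyte precursors with a gene of 6.9 kb, had 9.15, 8.68, 9.25 and 9.24 on the DMSO arrays and 5.85, 6.95, 6.40 and 7.06 on the ICRF-193 arrays (limma adjusted p = 0.000793). Car3, a carbonic anhydrase, went from 10.22, 10.04, 10.21 and 9.90 to 7.67, 7.90, 8.31 and 8.33 (limma adjusted p = 0.000133). Adipoq, the hormone adiponectin, went from 7.27, 7.14, 7.0 and 7.37 to 4.80, 4.58, 5.77 and 5.83 (limma adjusted p = 0.00423). None of these genes had overlapping groups. In bulk cultures fewer cells of a type and less RNA per cell cannot be told apart, and markers of the oligodendrocyte lineage are given with the cell types below. Sox8, a transcription factor of glia, fell by 1.67 (limma adjusted p = 0.0445), did not pass with the replicate number as a block (limma adjusted p = 0.063) and lost its call when any of 6 arrays was left out, namely DMSO replicates 2, 3 and 4 and ICRF-193 replicates 2, 3 and 4 (limma adjusted p = 0.0628 to 0.109). 9630013A20Rik, with a gene of 17.7 kb, fell by 1.36 without overlap of the groups (limma adjusted p = 0.000744). Rises over 100 kb besides Rasgrf1 were led by Rph3al (1.69), Cdh22 (1.42), a cadherin, Ttc39b (1.37), a regulator of lipid metabolism, and Crim1 (1.25), which binds bone morphogenetic proteins.

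Promoter sequence was read from RefSeq for 6926 tested genes with 1 annotated start, as 250 bases before to 50 after it. The GC box GGGCGG, searched on both strands, was in 52.8% of the 127 fallen genes over 100 kb, 74.0% of the 697 genes over 100 kb that did not pass, 73.4% of the 207 risen genes, 69.1% of all tested genes and 35.2% of all 22862 RefSeq genes with 1 start. The median observed to expected ratio of CpG was 0.72, 0.83, 0.78 and 0.80 in the same classes of tested genes. TATAAA was in 3.94%, 5.17%, 7.73% and 6.30%, and CCAAT in 32.3%, 32.0%, 41.5% and 39.8%. A match describes letters in a window and no binding. The 250 bases before the start are shown for 2 of the leading long falls and 2 of the leading rises with 1 annotated start, so that a reader can see promoters of genes that moved apart. They are from GRCm38.p6, in the direction of transcription, and capitals mark GC boxes on either strand.
Nrg3, lower, chr14:39473089-39473338, minus strand: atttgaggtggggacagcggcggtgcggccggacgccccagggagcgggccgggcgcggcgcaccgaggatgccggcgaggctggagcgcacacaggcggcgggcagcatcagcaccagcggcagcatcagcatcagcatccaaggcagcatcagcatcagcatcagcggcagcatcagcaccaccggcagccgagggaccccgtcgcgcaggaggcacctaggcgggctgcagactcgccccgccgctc
Sorcs1, lower, chr19:50678647-50678896, minus strand: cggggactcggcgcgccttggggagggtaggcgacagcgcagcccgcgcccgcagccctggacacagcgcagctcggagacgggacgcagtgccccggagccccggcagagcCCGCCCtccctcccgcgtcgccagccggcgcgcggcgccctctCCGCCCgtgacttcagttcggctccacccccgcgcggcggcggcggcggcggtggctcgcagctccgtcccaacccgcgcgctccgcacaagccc
Il1b, higher, chr2:129371140-129371389, minus strand: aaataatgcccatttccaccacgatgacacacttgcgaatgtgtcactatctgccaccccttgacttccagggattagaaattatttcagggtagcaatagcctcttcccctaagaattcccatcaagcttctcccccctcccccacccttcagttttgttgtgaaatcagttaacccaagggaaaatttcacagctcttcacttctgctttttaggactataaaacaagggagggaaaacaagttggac
Rasgrf1, higher, chr9:89909525-89909774, plus strand: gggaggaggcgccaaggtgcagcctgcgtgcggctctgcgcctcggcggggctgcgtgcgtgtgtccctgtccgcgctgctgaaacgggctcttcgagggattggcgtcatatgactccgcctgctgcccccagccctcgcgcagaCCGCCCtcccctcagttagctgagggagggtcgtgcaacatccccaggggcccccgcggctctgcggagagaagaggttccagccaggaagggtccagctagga
These windows held 0, 2, 0 and 1 GC boxes, and 72.4%, 79.6%, 44.4% and 69.2% of their bases were G or C, so neither the falls nor the rises shown here shared the motif.

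The direction of the changes carried over between the sets of arrays when each was fitted alone, while part of the calls did not. In replicates 1 and 2, 2 arrays against 2, 181 genes (1.68%) were lower and 123 (1.14%) higher. Of the falls 97.8% and of the rises 98.4% had the same direction in replicates 3 and 4, against 67.4% over all genes. In replicates 3 and 4, 131 genes (1.22%) were lower and 83 (0.771%) higher, and 99.2% and 96.4% of them had the same direction in replicates 1 and 2. Called in both sets were 97 falls and 46 rises. The sizes carried over as well. Falls called in replicates 1 and 2 had a median of -1.15 there and -1.01 in the other set, and falls called in replicates 3 and 4 had -1.29 there and -1.27 in the other set. Rises went from 0.997 to 0.895 and from 1.17 to 0.893. Across genes the changes in the sets correlated with r = 0.668 and rho = 0.502 (n = 10771 genes of 8 arrays, no replicates of each other).

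**Figure D4:**
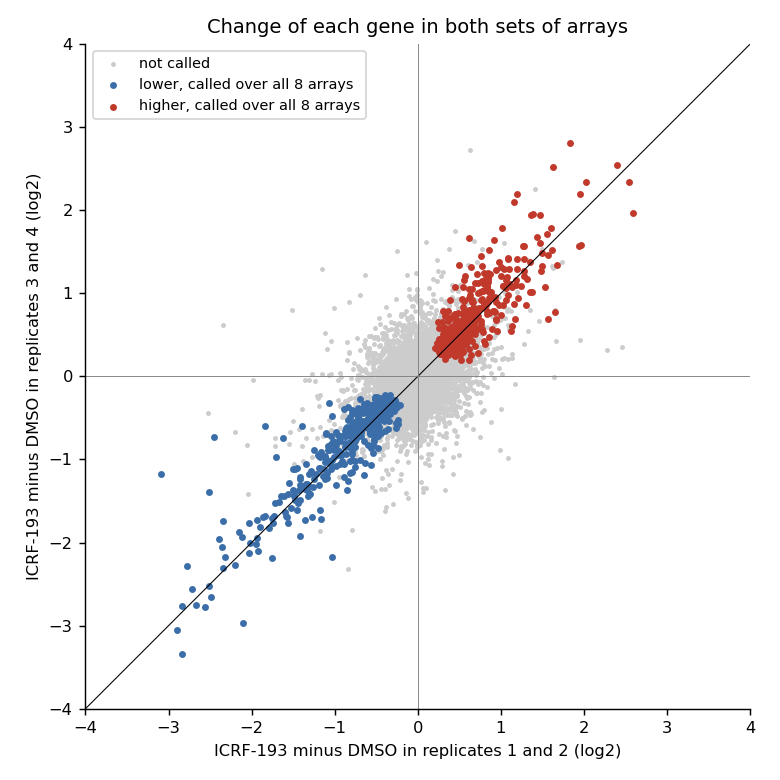
Change of each tested gene in replicates 1 and 2 (x axis, log2) and in replicates 3 and 4 (y axis, log2), with genes called lower over all 8 arrays in blue, called higher in red and the rest in grey, and the diagonal of equal change as a line. The 715 called genes lie in the quadrants where both sets have the same direction, and Nrg3 is at the lower left. They were called on all 8 arrays, and 710 of them had groups without overlap, which fixes the same direction in both sets. Their place is thus no evidence of agreement.

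No gene passed a limma test of the difference between sets (0 called, smallest adjusted p = 0.157), and 583 genes had an unadjusted p under 0.05. The gene with the smallest p was Fos, the activity-induced transcription factor. Fos had 12.89, 12.72, 9.40 and 9.46 on the DMSO arrays and 10.59, 10.64, 8.72 and 8.80 on the ICRF-193 arrays. Its DMSO level thus differed between sets by more than the treatment did within a set, and its changes were -2.19 in replicates 1 and 2 and -0.67 in replicates 3 and 4. Rab3b, a GTPase of vesicles, followed with changes of 0.63 and 2.72 (limma adjusted p of the difference = 0.176), and in Lrrc8c, an anion channel subunit, Gbp6, a guanylate-binding protein, and Tbata the sets had opposite signs without passing.

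The gene lists below are described by counts and by the median change of their measured members, to be read against 3.48% lower, 3.16% higher and a median of 0.0083 over all genes. List counts given with the replicate number as a block have another background. With that block 485 of the 10771 genes were lower and 461 higher. Length must be read beside them, since 246 of the 1573 tested genes over 100 kb fell. Of the measured members, 15 of 19 immunoglobulin adhesion molecules, 14 of 18 protocadherins and cadherins and 10 of 12 glutamate receptors exceeded 100 kb. Whether a family changed beyond its length was not tested. Of 14 measured neurexins, neuroligins and partners, which join synapses, 5 fell and none rose (median -0.13), and of 19 adhesion molecules of the immunoglobulin family 9 fell and none rose (median -0.40). All 19 of the latter had a change below 0. Ntm and Opcml, anchored in the membrane by a lipid, fell by 2.18 and 1.44. Protocadherins and cadherins split, with 5 of 18 lower and 3 higher. Pcdh8, a gene of 5 kb, had 8.30, 8.31, 8.62 and 8.0 on the DMSO arrays and 9.80, 9.75, 10.02 and 9.82 on the ICRF-193 arrays, opposite to the long Pcdh9, Cdh13 (-1.75) and Cdh8 (-1.54). The other rises of this list, Cdh22 (1.42) and Cdh4 (0.45), were in genes over 100 kb, so its rises were not confined to short genes. Of 16 receptor tyrosine phosphatases 3 fell, led by Ptprk (-1.59), and the shorter Ptpru rose by 1.20. With the replicate number as a block 5 of the 16 were lower.

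Of 12 measured glutamate receptor subunits 5 fell (median -0.85), with Grin2b, an NMDA receptor subunit of developing neurons, at -1.73 and Gria3, an AMPA receptor subunit, at -1.45. The 9 GABA and glycine receptor subunits had a median of 0.01, and 1 of them, Gabra2, fell by 0.45. With the replicate block 4 of these were lower and 1 higher. Sodium and calcium channels had 4 of 22 lower and 1 higher (median -0.04), and all 4 falls were calcium channel subunits. With the block 6 of the 22 were lower and 3 higher. Cacna2d1, an auxiliary subunit that brings channels to the membrane, had 12.33, 12.44, 12.46 and 12.37 on the DMSO arrays and 10.49, 10.70, 10.63 and 10.55 on the ICRF-193 arrays, a 3.5-fold decrease (limma adjusted p = 7.04e-06). Its relative Cacna2d3 went from 10.42, 10.43, 10.05 and 9.95 to 8.41, 8.21, 8.15 and 7.98. Both were far below their DMSO levels on each ICRF-193 array. The pore subunits Cacna1e, of R-type channels, and Cacna1c, of L-type channels, fell by 1.20 and 1.11, while the L-type Cacna1d rose by 0.48.

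Potassium channels had 6 of 24 lower and 3 higher (median -0.24). Kcnq5, which carries M-current, and Kcnd2, which carries A-type current, fell by 1.64 and 1.33, and the inward rectifier Kcnj12 rose by 1.00. With the block 8 of the 24 were lower and 5 higher. Of 46 ligands and receptors of axon guidance 9 fell and 5 rose (median -0.10). Unc5c, a netrin receptor of repulsion, had 12.01, 12.12, 12.27 and 12.21 against 10.04, 10.22, 10.32 and 10.26 (limma adjusted p = 1.24e-05), whereas its relative Unc5a rose by 0.86, a call lost without any of 6 arrays, all but DMSO replicate 2 and ICRF-193 replicate 3 (limma adjusted p = 0.0641 to 0.0885). Of 42 genes of vesicle release 9 fell and 4 rose (median -0.12), with Cadps2, of dense core vesicles, at -1.36 and Syt13, a synaptotagmin, at 1.40. In these lists of adhesion, receptors, channels, guidance and release, every fall called without the block was a gene over 100 kb.

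Of 24 splicing factors of neurons 7 fell and 1 rose (median -0.19). Rbfox1, which spans 1528 kb and sets neuronal exons, had 10.96, 10.94, 10.80 and 10.96 on the DMSO arrays and 9.32, 9.38, 9.39 and 9.11 on the ICRF-193 arrays (limma adjusted p = 2.09e-05). Rbfox3, the NeuN antigen of mature neurons, went from 12.98, 12.88, 12.93 and 13.11 to 11.95, 11.87, 11.97 and 12.05 (limma adjusted p = 0.000114). The groups of both stood clear of each other, and 3 of 3 bright probe sets of each passed. Msi2 and Celf2, which bind RNA in precursors and neurons, fell by 1.16 and 1.12, and Msi1, the shorter relative of Msi2, rose by 0.46, a call lost without any array but ICRF-193 replicate 2 (limma adjusted p = 0.0596 to 0.0982).

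Of 25 growth factor ligands and receptors 6 fell and 3 rose (median -0.05). Besides Nrg3 and Fgf14, Fgf13 and the BDNF receptor Ntrk2 fell by 0.96 and 0.62, and Pdgfa, Ret and Gfra2 rose by 0.96, 0.78 and 0.74. Other bright probe sets of Gfra2 changed by 0.81, 0.12 and -0.10, and another of Ret by 0.20. None of these passed when every probe set was fitted (limma adjusted p = 0.117, 0.929, 0.915 and 0.766). Transcription factors of the granule lineage had 10 of 35 lower and 3 higher (median -0.09), and 7 of the 10 falls were over 100 kb. Zfpm2 had 13.19, 13.10, 12.97 and 13.14 against 10.67, 10.94, 10.63 and 10.87 (limma adjusted p = 7.04e-06). Nfia, a nuclear factor of maturing granule neurons, had 13.38, 13.25, 13.47 and 12.96 against 11.38, 11.57, 11.57 and 11.50 (limma adjusted p = 6.76e-05). In both the ICRF-193 arrays were far below each DMSO array. Nfib, a relative of Nfia, fell by 1.15 and Sox5, a factor of neuronal differentiation, by 1.40. Neurod2, a short gene of neuronal differentiation, rose by 0.51, and Cux2, a homeobox factor, by 0.57, and neither passed with arrays centred on their medians. Other bright probe sets of Cux2 changed by -0.42 and 0.30 and did not pass when every probe set was fitted (limma adjusted p = 0.365 and 0.78). Neurod6, another differentiation factor, rose by 0.45 and did not pass with the replicate number as a block, nor without any array but DMSO replicate 1 (limma adjusted p = 0.0538 to 0.102).

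Chromatin remodellers had 2 of 32 lower and 1 higher (median -0.05). Chd7, the remodeller the study is about, had 11.86, 11.81, 12.07 and 12.18 on the DMSO arrays and 10.57, 10.32, 10.79 and 10.83 on the ICRF-193 arrays, a change of -1.35 ± 0.14 (SE, limma adjusted p = 0.00058). No ICRF-193 array reached the lowest DMSO array. Arid1b, a subunit of the BAF complex, fell by 0.66, and Smarcd3, a neuronal subunit of the same complex, rose by 1.51. Among the genes named by the study, 9 of 12 measured fell and none rose (median -1.35). They were picked in part on these arrays, so this count is no independent evidence of a direction. Reln, the secreted organiser of cortical layers, had 14.60, 14.46, 14.69 and 14.68 against 13.04, 13.01, 13.31 and 13.32 (limma adjusted p = 8.06e-05). Of the 12, the 3 that did not pass were Gap43, a growth cone protein, Neurod1 and Cnksr3. Their changes were -0.06, -0.13 and -0.16 (limma adjusted p = 0.641, 0.357 and 0.2845). The paper describes Cnksr3 as a gene that Chd7 and Top2b activate.

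**Figure D5:**
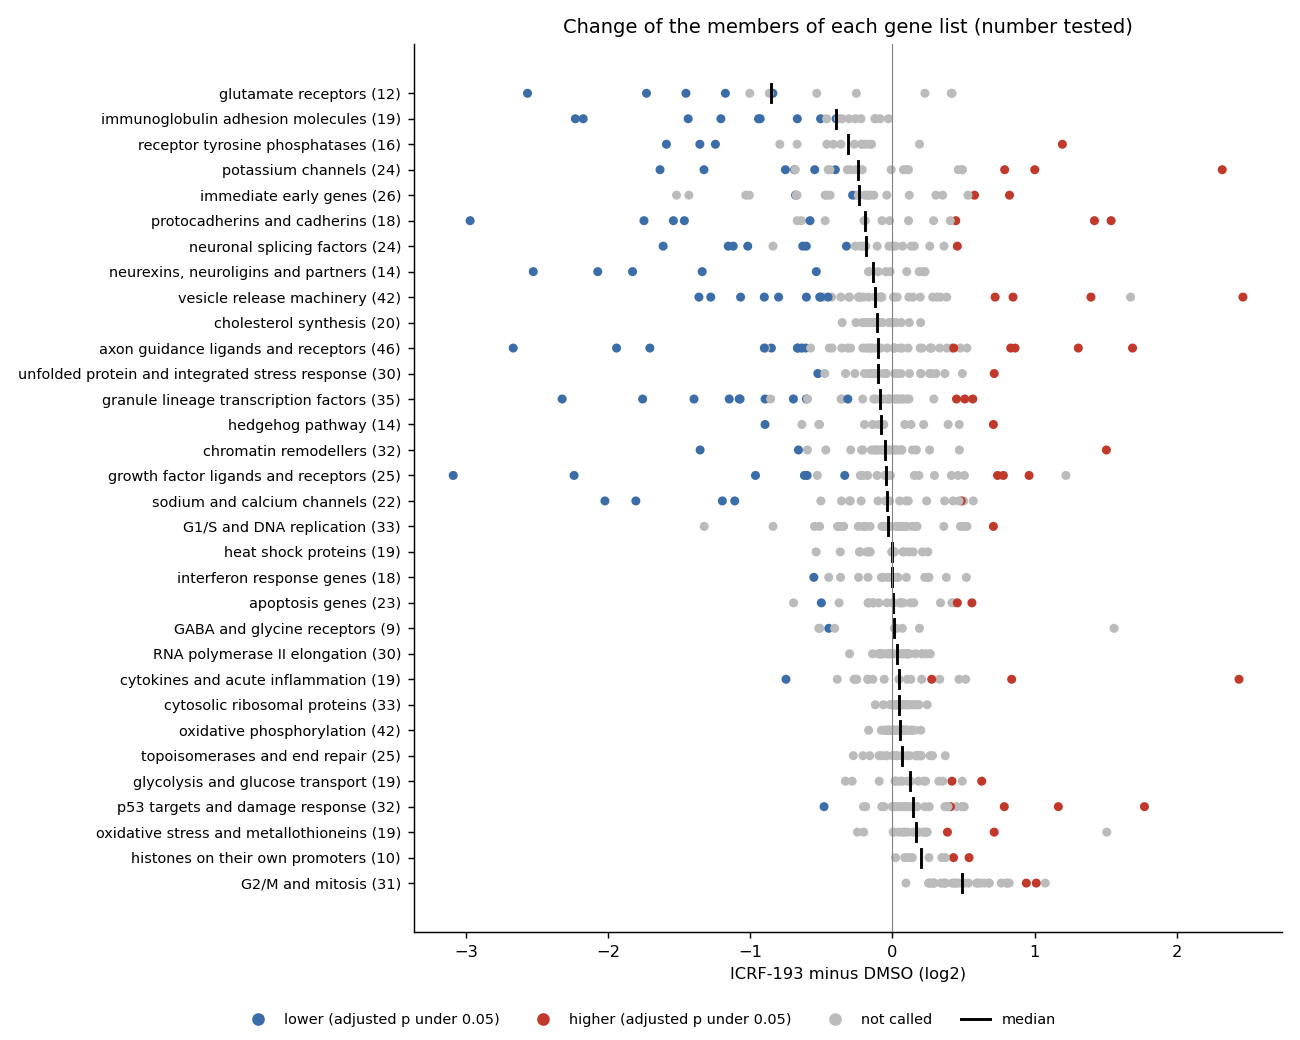
Change with ICRF-193 (x axis, log2) of each measured member of the gene lists (rows, number tested in brackets), with called falls in blue, called rises in red, other members in grey and a black bar for the list median. Glutamate receptors are at the top with a median of -0.85, genes of G2/M and mitosis at the bottom with a median of 0.49.

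Calls among genes of the damage response lay in the list of p53 targets and damage genes. Of 25 topoisomerases and genes of DNA end repair none passed in either direction (median 0.07), and 1 was higher with the replicate block. Of 32 targets of p53 and other damage genes 4 rose (12.5%, beside 3.16% over all genes) and 1 fell. Their median change was 0.14, beside 0.0083 over all genes, and 26 had a change above 0. Eda2r, a p53 target of the TNF receptor family, had 5.93, 6.83, 7.10 and 6.94 on the DMSO arrays and 8.39, 8.31, 8.42 and 8.78 on the ICRF-193 arrays (limma adjusted p = 0.00311). Gadd45g, a stress sensor, went from 7.40, 7.85, 7.76 and 7.21 to 8.82, 8.80, 8.50 and 8.79 (limma adjusted p = 0.00239). Each was higher on all ICRF-193 arrays than on any DMSO array. Aen, a nuclease of apoptosis, and Ccng1, a cyclin, rose by 0.79 and 0.41, while the classic targets Cdkn1a, which halts the cell cycle, and Mdm2, which degrades p53, had 0.45 (limma adjusted p = 0.193) and 0.00 (limma adjusted p = 0.993). Of 23 apoptosis genes 2 rose, Bcl2l11 (0.56), a killer of growth-factor-deprived neurons, and Dapk1 (0.46), a kinase whose call was lost with the replicate block and without any array but ICRF-193 replicate 1 (limma adjusted p = 0.066 to 0.122), and 1 fell, Casp6 (-0.50), a caspase.

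Other stress lists held few calls. None of 19 heat shock proteins passed (median 0.00). Of 30 genes of the unfolded protein and integrated stress response 1 rose and 1 fell (median -0.10), or 1 and 2 with the replicate block. Slc7a11, the cystine transporter, rose by 0.72 and with Nfe2l2 (0.39), the regulator of the antioxidant response, made up the 2 rises among 19 genes of oxidative stress (median 0.16). The call of Slc7a11 was lost without DMSO replicate 1 or 3 or ICRF-193 replicate 3 or 4 (limma adjusted p = 0.0509 to 0.0547). Of 18 interferon response genes 1 fell, Usp18 (-0.55), which removes ISG15 from proteins (median 0.00), a call lost without DMSO replicate 1 or 3 or ICRF-193 replicate 1, 3 or 4 (limma adjusted p = 0.0523 to 0.0653). With the block 2 of the 18 were lower.

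Immediate early genes, which neurons switch on with activity, had 2 of 26 lower and 2 higher (median -0.24), and 20 of the 26 were below 0. Jun, a subunit of AP-1, had 9.98, 10.16, 10.10 and 10.59 on the DMSO arrays and 9.32, 9.40, 9.57 and 9.81 on the ICRF-193 arrays (limma adjusted p = 0.0346). Ier5 went the other way, from 10.80, 10.68, 10.84 and 10.85 to 11.50, 11.58, 11.72 and 11.67 (limma adjusted p = 0.000432). The groups did not overlap for either gene. Dusp4, a phosphatase of MAP kinases, rose by 0.58, and Btg1, an antiproliferative factor, fell by 0.28, a call lost with the replicate block and without any of the 8 arrays (limma adjusted p = 0.0816 to 0.119). Jun lost its call without any array but DMSO replicate 1 and ICRF-193 replicate 4 (limma adjusted p = 0.0502 to 0.096). Nr4a1, a nuclear receptor, had a change of -1.03 that did not pass (limma adjusted p = 0.114, or 0.0269 with the replicate block). With the replicate block 6 of the 26 were lower, against 2 without it.

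Of 19 cytokines and genes of acute inflammation 3 rose and 1 fell (median 0.05). Il1b is described above, and Lcn2, a lipocalin of inflammation, had 8.89, 9.06, 8.93 and 8.67 against 9.69, 9.76, 9.71 and 9.74 (limma adjusted p = 0.000784). Ccl2, a chemokine for monocytes, fell from 9.13, 9.04, 9.02 and 9.27 to 8.39, 8.29, 8.60 and 8.19 (limma adjusted p = 0.00319). Lcn2 and Ccl2 thus moved in opposite directions without overlap. Cxcl12, a chemokine of migrating granule cells, rose by 0.28, a call lost with the replicate block and without any of the 8 arrays (limma adjusted p = 0.0668 to 0.0975). Microglia are a main source of Il1b in brain. Of 8 measured microglial markers none passed (median -0.27, all 8 below 0), and their summed level ran from 11.56 to 12.86 in DMSO and from 11.29 to 12.82 in ICRF-193. Tyrobp, a defining marker, had 10.19, 10.25, 8.91 and 8.88 against 10.20, 10.13, 8.78 and 8.77. Replicates 1 and 2 were higher than replicates 3 and 4 in Tyrobp and in Il1b alike, and Il1b was higher with ICRF-193 in both sets. Aif1, Cx3cr1, Trem2 and P2ry12 were below the signal limit.

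Markers of oligodendrocytes were lower in part. Of 9 measured, 2 fell, Myrf and Cnp, and none rose (median -0.62). Myrf, the regulator of myelin genes, had 7.30, 6.92, 7.33 and 7.53 on the DMSO arrays and 6.02, 4.00, 4.49 and 4.43 on the ICRF-193 arrays, where replicate 2 was at the floor (limma adjusted p = 0.00583). Cnp, a myelin enzyme, had 10.27, 10.32, 10.70 and 10.72 against 9.15, 9.87, 9.60 and 9.53 (limma adjusted p = 0.0114). No array crossed between groups in either gene. Olig1, Sox10 and Mbp, which define the lineage and its myelin, had changes of -1.05, -0.61 and -0.62 that did not pass (limma adjusted p = 0.162, 0.105 and 0.149) and passed with the replicate number as a block (limma adjusted p = 0.00689, 0.0142 and 0.00473). Pdgfra, a receptor of precursors and fibroblasts, had 0.68 (limma adjusted p = 0.0901, or 0.0433 with the block). With the block 5 of the 9 were lower and 1 higher. The summed level of the 9 markers was 12.94 to 13.48 in DMSO and 12.58 to 13.14 in ICRF-193, and Mog was below the signal limit. Gpr17 and Sox8, described above, belong to the same lineage.

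Other cell types gave few calls. Of 10 measured markers of astrocytes and Bergmann glia none passed (median 0.05), and Aqp4, a water channel, had -0.65 (limma adjusted p = 0.244, or 0.0231 with the replicate block). The 9 markers of fibroblasts and pericytes (median -0.30), 2 of endothelial cells (median 0.35) and 1 of erythroid cells (0.18) had no call either, and Pecam1, Cldn5, Flt1 and Cdh5 of endothelium were below the signal limit. Of the fibroblast markers Col1a2, a collagen chain, had -0.58 and Dcn, a matrix proteoglycan, had 0.43, and both passed with the block (limma adjusted p = 0.0445 and 0.0475, against 0.400 and 0.0546 without it). Gad1, which makes GABA and stands in the lists of 7 Purkinje cell markers (median -0.17) and 4 interneuron markers (median -0.23), fell by 0.42 as their only call, which was lost without any array but DMSO replicate 4 and ICRF-193 replicate 2 (limma adjusted p = 0.0533 to 0.0694). Slc32a1, the vesicular GABA transporter of both lists, had -0.47 (limma adjusted p = 0.133, or 0.0463 with the block). Pcp2 and Car8 of Purkinje cells and Sst and Pvalb of interneurons were below the signal limit. The 10 granule neuron markers had a median of -0.10. Cntn2, a contactin of parallel fibres, had -0.36 (limma adjusted p = 0.154, or 0.0229 with the block), and Gabra6, a receptor subunit of mature granule neurons, was below the signal limit.

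Markers of granule progenitors split, with 1 of 7 lower and 1 higher (median -0.06), or 2 and 2 with the replicate block. Atoh1, the factor that defines progenitors, had 7.98, 8.09, 8.72 and 8.62 on the DMSO arrays and 7.02, 7.48, 7.64 and 7.69 on the ICRF-193 arrays (limma adjusted p = 0.0397). Mycn, a hedgehog target that drives their division, had 11.22, 11.17, 11.53 and 11.57 against 11.97, 11.86, 12.28 and 12.23 (limma adjusted p = 0.0154). These genes, which mark the same cells, thus changed in opposite directions in both sets, and they are the only calls without the block among 14 hedgehog pathway genes (median -0.08), of which 2 were lower and 2 higher with it. Atoh1 lost its call without any array but DMSO replicate 1 (limma adjusted p = 0.0518 to 0.0945). Among 33 genes of G1/S and DNA replication Mycn was the only call (median -0.03), while 4 were lower and 4 higher with the replicate block.

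All 31 measured genes of G2/M and mitosis had a change above 0 (median 0.49), and 2 passed. Cenpa, the histone of centromeres, had 9.16, 9.29, 9.83 and 10.00 on the DMSO arrays and 10.43, 10.34, 10.82 and 10.74 on the ICRF-193 arrays (limma adjusted p = 0.0218). Ccnb2, a mitotic cyclin, had 8.64, 8.77, 9.51 and 9.16 against 9.64, 9.82, 10.25 and 10.14 (limma adjusted p = 0.0324). Replicates 3 and 4 were higher than replicates 1 and 2 under both treatments, so the spread within a group was wide. Cenpa lost its call without DMSO replicate 1 or 2 or ICRF-193 replicate 3 or 4 (limma adjusted p = 0.0521 to 0.0666), and Ccnb2 without any array but DMSO replicate 3 and ICRF-193 replicate 1 (limma adjusted p = 0.0596 to 0.0923). With the replicate number as a block 14 of the 31 were higher, and Mki67, the proliferation marker, which had a change of 0.53 (limma adjusted p = 0.441), then passed (limma adjusted p = 0.0071). The summed level of the list was 13.62 to 14.52 in DMSO and 14.37 to 15.05 in ICRF-193. Ccnd2, a cyclin of G1 in progenitors, had -0.51 (limma adjusted p = 0.197, or 0.0153 with the block).

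Genes that every cell uses held few calls. None passed among 33 cytosolic ribosomal proteins (median 0.05, from -0.12 to 0.24), 42 genes of oxidative phosphorylation (median 0.06, from -0.17 to 0.20), 20 of cholesterol synthesis (median -0.11, 1 lower with the replicate block) and 30 of RNA polymerase II elongation (median 0.03). Of 19 genes of glycolysis and glucose transport 2 rose, Slc16a1 (0.63), a lactate transporter, and Pfkfb3 (0.42), an activator of glycolysis (median 0.13), and the latter lost its call without any array but DMSO replicate 1 (limma adjusted p = 0.0674 to 0.114). Of 10 histone genes with their own promoters 2 rose, H3f3b (0.54) and H1f2 (0.43), and all 10 were above 0 (median 0.20), or 9 of them with arrays centred on their medians. H1f2 lost its call without any array but DMSO replicate 2 (limma adjusted p = 0.0669 to 0.104). No histone, ribosomal or respiratory gene in these lists fell.

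Arrays of granule cells cultured with and without the agent labelled Smo2 (n = 3 each) share no array with this comparison and were read for the same genes. Over all genes 4197 (39.0%) were lower and 3194 (29.7%) higher with Smo2. Of the 375 genes lower with ICRF-193, 286 (76.3%) were lower with Smo2 and 40 were higher. Of the 340 genes higher with ICRF-193, 136 (40.0%) were higher with Smo2 and 114 lower. Among genes of 400 kb or more the median Smo2 change was -1.15 in the 118 that fell with ICRF-193 and -0.49 in the 93 that did not pass.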

How the data were processed

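Cultured granule neurons of mouse cerebellum were profiled on Affymetrix Mouse Genome arrays. The authors deposited intensities on a linear scale for 45101 probe sets, scaled so that the mean after trimming 2% at each end was 500 on every array. The software that summarised the probes was not given in the sources used here. Intensities were floored at 16, taken to log2 and quantile normalized over all 22 arrays. The brightest probe set stood for each gene with 1 symbol. Genes were tested if their mean log2 signal reached 6.44, the median of all probe sets (10771 of 18193). Of 231 array pairs 0 were identical.

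ICRF-193 and DMSO arrays were compared with limma 3.58.1 in R 4.3.3 (lmFit and eBayes, two-sided, Benjamini-Hochberg over all genes, called at adjusted p under 0.05). Arrays of the same number deviated together from their group means (r from 0.280 to 0.414), and other arrays of the same set did so too (r from 0.299 to 0.347). These ranges overlap, so they show likeness within sets and cannot show pairing by number. The replicate number was used as a block as an alternative. Values with the replicate number as a block are given where they change the call of a gene named, or move a list's count of falls or rises by over 1.5 times. The long gene score was compared by an exact permutation test. Lengths and promoters are from RefSeq GRCm38.p6.

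The comparison, the 43 gene lists and the rules were chosen with earlier results of these data known. The lists cover adhesion, receptors, channels, guidance, release, splicing, transcription factors, chromatin, damage and stress, activity, inflammation, the cell cycle, metabolism, basic cell functions and cell type markers, and each is given in the report. Symbols of 10 listed genes were updated. Genes were picked for naming by rules, and not every pick is printed. The rules took the 12 largest called changes without overlap each way and up to 4 called members of each list each way. Topoisomerases, Chd7, genes the study names and defining markers were added. So were the 5 leading short falls and long rises, the 5 longest genes and the 5 genes that differ most between sets. Others named were chosen after their values were seen. They are Xist, Eif2s3y, Nr4a1, Cdkn1a, Mdm2, Snhg14, Nbea, Lrba and the genes nested in a host. The pipeline was tested on simulated data. Alternatives changed the normalization, filter, floor, block, variance model, test, probe set per gene, threshold and length limit, and left out each array in turn. Python 3.11.15 and matplotlib 3.10.9 made the figures.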

Additional observations from a re-analysis of the deposited data

Results flagged for a closer look

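Probe sets that carry no gene symbol or several were not part of the gene comparison. In a limma fit of all 45101 probe sets, 67 of the 10092 such probe sets were lower and 31 were higher with ICRF-193 at an adjusted p under 0.05. The gene comparison, which left out dim genes, had 375 lower and 340 higher of 10771 genes. The report does not use these probe sets further, and no gene is named from them. Among 64 groups of 4 arrays, from both treatments for 31 named genes and the long gene score, none had an array set apart from the others by Dixon's test, where chance would mark about 1 in 20.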

How the results depend on the processing

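With the replicate number as a block, which pairs arrays of the same number, 485 genes were lower and 461 higher, and 630 of the 715 calls were shared; it ended the calls of Sox8, Btg1, Neurod6, Dapk1, Cxcl12 and Mab21l2 and no other call among the genes named. With the set as a block the counts were 613 and 649. With set means as samples, 2 against 2, they were 45 and 15, and the long gene score kept its value of -0.1939 with an exact permutation p of 0.333, the smallest this design allows. That score gave exact p = 0.0556 with arrangements within sets and p = 0.125 with the signs of the 4 differences within numbers, again the smallest possible. Centring arrays on their medians gave 241 lower and 173 higher genes and turned the sign of the medians of GABA and glycine receptors, RNA polymerase II elongation, apoptosis, cytokines and oxidative phosphorylation. The mean of all probe sets gave 236 lower genes. The methods' t-test at an unadjusted p under 0.05 gave 945 and 1109, an adjusted p under 0.01 gave 198 and 141, and a fold of at least 1.5 added to the threshold gave 239 and 193. Genes whose change differs between sets numbered 1 with median centring, 5 without the filter and 2 with a trended and robust variance model. The share of calls of replicates 1 and 2 with the same direction in the other set was 100% at an adjusted p under 0.01. Leaving out each array in turn gave 261 to 320 lower and 216 to 282 higher genes. Set agreement could not be computed without the filter, or where an omitted array or the stricter threshold left no calls in a set. Of the 192 genes picked for naming, 127 were called. Of these, 28 kept their call under each of the 22 settings that could be run for them. With each array left out in turn, 101 kept it. None reversed. The causes of these differences were not tested. The number of arrays and the signal over background of dim probe sets limit what can be called.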
